A study of Mus musculus with 8 samples.

Results

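Expression of 8 sterol synthesis genes was followed across the cell types of the mouse inguinal white fat stromal vascular fraction (SVF). The genes were Hmgcs1, Idi1, Fdps, Fdft1, Sqle, Lss, Cyp51 and Insig1. Their rows were found by symbol, each symbol named 1 row of the count tables, and together they made 8 of the 32285 genes listed. The list was drawn up with earlier results of these data known. SVF is the pellet left after fat is digested with collagenase and its buoyant adipocytes are discarded. Cells were profiled with the 10x Genomics 3' droplet assay, which counts each captured transcript once through a unique molecular identifier (UMI). The 8 libraries came from C57BL/6 mice, 4 fed ad libitum (Ad-Lib, replicates 1, 3, 5 and 7) and 4 on a twice-a-night schedule (TAN, replicates 2, 4, 6 and 8), which limits food to a pair of meals in the dark phase. The labels give an age of 8 weeks for both groups. The study's methods describe older male mice kept for months on a regular diet under either schedule, fat pads with the lymph nodes cut away, and killing at midnight, after the first night meal. The label and the methods thus differ on age. The labels do not say whether a library was 1 mouse or a pool, the study's text speaks of animal replicates, and p-values measure only the spread between these libraries.

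Cells make cholesterol from acetyl-CoA through mevalonate, isoprenoids, squalene and lanosterol. SREBP2, a transcription factor held in the endoplasmic reticulum by SCAP and the INSIG proteins while sterols are plentiful, is released when they run low and turns on nearly every gene of the path. Insig1, itself a target, closes the loop, and in fat and liver it is also known as a gene that responds to insulin. Adipocytes store much of the body's free cholesterol and make little of it, and progenitors, endothelial cells and immune cells each take up or make their own.

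The genes lie on 6 chromosomes of GRCm38. Hmgcs1, which makes HMG-CoA from acetyl-CoA, lies at chr13:119690379-119708260 on the plus strand. Idi1, which interconverts the basic isoprenoid units, lies at chr13:8885501-8892451 (plus). Fdps (farnesyl diphosphate synthase) lies at chr3:89093588-89101959 (minus) and Fdft1 (squalene synthase) at chr14:63145150-63179578 (minus). Sqle, the squalene epoxidase, lies at chr15:59315077-59331192 (plus), and Lss, which closes the rings to give lanosterol, at chr10:76531588-76557138 (plus). Cyp51, the lanosterol demethylase, lies at chr5:4081145-4104746 (minus) and Insig1, the sterol-dependent anchor of SCAP, at chr5:28071363-28078662 (plus).

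RefSeq promoter windows for GRCm38.p6 were found for 5 of the 8 genes (Hmgcs1, Idi1, Lss, Cyp51 and Insig1). Windows for Fdps, Fdft1 and Sqle are not shown here. In the 250 bases before the RefSeq start, on either strand, a sterol regulatory element with the letters TCACNCCAC was found in 1 of the 5, Hmgcs1, starting 137 bases before the start. The same letters occurred in 1.05% of the 32851 windows of that length. A CCAAT box (CCAAT) was found in 5 of the 5 and in 33.8% of all windows, and a GC box (GGGCGG) in 5 of the 5 and in 32.7% of all windows. Other spellings of the element were not searched. The stretches before the annotated start of Hmgcs1, the gene with the element, and of Insig1, the gene with the one called difference below, follow with these elements and CCAAT boxes in capitals (chr13:119690101-119690350 and chr5:28071162-28071362, both on the plus strand).
Hmgcs1: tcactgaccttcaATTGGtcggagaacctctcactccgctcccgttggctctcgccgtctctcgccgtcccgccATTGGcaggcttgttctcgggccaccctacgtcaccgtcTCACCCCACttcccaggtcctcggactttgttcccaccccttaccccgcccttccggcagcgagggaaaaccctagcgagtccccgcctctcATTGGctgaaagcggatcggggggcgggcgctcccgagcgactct
Insig1: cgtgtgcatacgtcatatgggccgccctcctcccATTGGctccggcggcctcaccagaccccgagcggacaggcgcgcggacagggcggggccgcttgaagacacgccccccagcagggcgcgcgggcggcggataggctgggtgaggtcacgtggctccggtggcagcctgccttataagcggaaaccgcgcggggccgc

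Across the 8 libraries 44427 barcodes held 232345333 UMIs, 25320800 to 37140950 per library, and 36370 cells passed the limits on depth, genes and mitochondrial share. Any pair of libraries shared 2 to 14 barcodes. Cells were sorted by marker UMIs into 6 gates: Pdgfra (adipocyte progenitors), Pecam1 (endothelial cells), C1qa (macrophages), Cd3e (T cells), Cd79a (B cells), and Adipoq together with Car3 (droplets rich in adipocyte transcripts). Of the cells kept, 65.3% fell into a single gate, and the 3.08% in several gates were left out. Gates held 395 to 1392 cells per library for Pdgfra, 660 to 1127 for Pecam1, 339 to 905 for C1qa, 70 to 1113 for Cd3e, 24 to 647 for Cd79a and 47 to 150 for Adipoq/Car3. Levels are given as CPM, a gene's UMIs scaled to a common total by the gate's sum of UMIs in that library. Droplets of the Adipoq/Car3 gate were shallow, with a median of 995 to 1203 UMIs per library against 9244 to 11658 in the Pdgfra gate. They are described as adipocyte transcripts in droplets: whether each held an adipocyte or RNA released from one was not tested. In the Cd79a gate the library Ad-Lib 1 stood apart, with 27 cells and a median of 14789 UMIs, and in its Cd3e gate B cell markers summed to 3349 CPM against 230 to 335 in the other 7 libraries.

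Hmgcs1 averaged 108 ± 22.8 CPM in the Pdgfra gate (SD, n = 8 libraries), 30.4 ± 1.79 in Pecam1, 22.5 ± 2.50 in C1qa, 17.9 ± 4.28 in Cd3e and 15.0 ± 7.65 in Cd79a, and 181 ± 101 in the Adipoq/Car3 gate. Leaving the Adipoq/Car3 droplets aside, the progenitor gate was the highest for each of the 8 genes on mean log2(CPM + 1), although for Lss the plain mean was higher in Cd79a (4.81 ± 5.36 CPM). Its level was 61.6 ± 10.2 CPM for Insig1, 52.0 ± 18.4 for Fdps, 47.0 ± 11.0 for Idi1, 35.8 ± 7.85 for Cyp51, 29.3 ± 8.51 for Sqle, 16.4 ± 3.49 for Fdft1 and 4.49 ± 1.07 for Lss. UMIs from 3' ends are not compared between genes here.

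Neighbours in the order of gates were compared on log2(CPM + 1) by exact sign flips over the 8 libraries (two-sided, smallest p 0.0078). Of 40 neighbouring pairs, 8 passed 0.05 after Benjamini-Hochberg adjustment over the pairs (adjusted p 0.0391 each). In 6 of the 8 the Pdgfra gate stood above the next gate in 8 of 8 libraries, by 1.77 ± 0.30 (SD of the log2 difference) over Pecam1 for Hmgcs1, 1.65 ± 0.76 over Cd3e for Idi1, 0.92 ± 0.35 over Pecam1 for Fdft1, 2.20 ± 0.71 over Cd3e for Sqle, 1.31 ± 0.43 over C1qa for Cyp51 and 0.68 ± 0.29 over C1qa for Insig1. The other 2 were Hmgcs1 in Pecam1 above C1qa (0.42 ± 0.21) and Fdft1 in Cd3e above C1qa (0.93 ± 0.46). Pdgfra and Adipoq/Car3 were neighbours at the top for Hmgcs1, Idi1, Fdps, Fdft1 and Insig1. None of those 5 pairs passed. The nearest were Insig1 and Fdft1, for which the Adipoq/Car3 gate measured 1.62 ± 1.09 and 1.46 ± 0.94 above the Pdgfra gate, in 7 of 8 libraries each (exact p 0.0156, adjusted 0.0625). For Lss no pair of neighbours passed. The calls rest on how many pairs reach the smallest p. With gates at 1 UMI 6 pairs reached it and none passed (adjusted p 0.0521), with cells thinned to 1000 UMIs 4 did and none passed (0.0781), and with a library left out, where the smallest exact p is 0.0156, 6 to 10 pairs reached it and none passed (smallest adjusted p 0.0625).

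**Figure D1:**
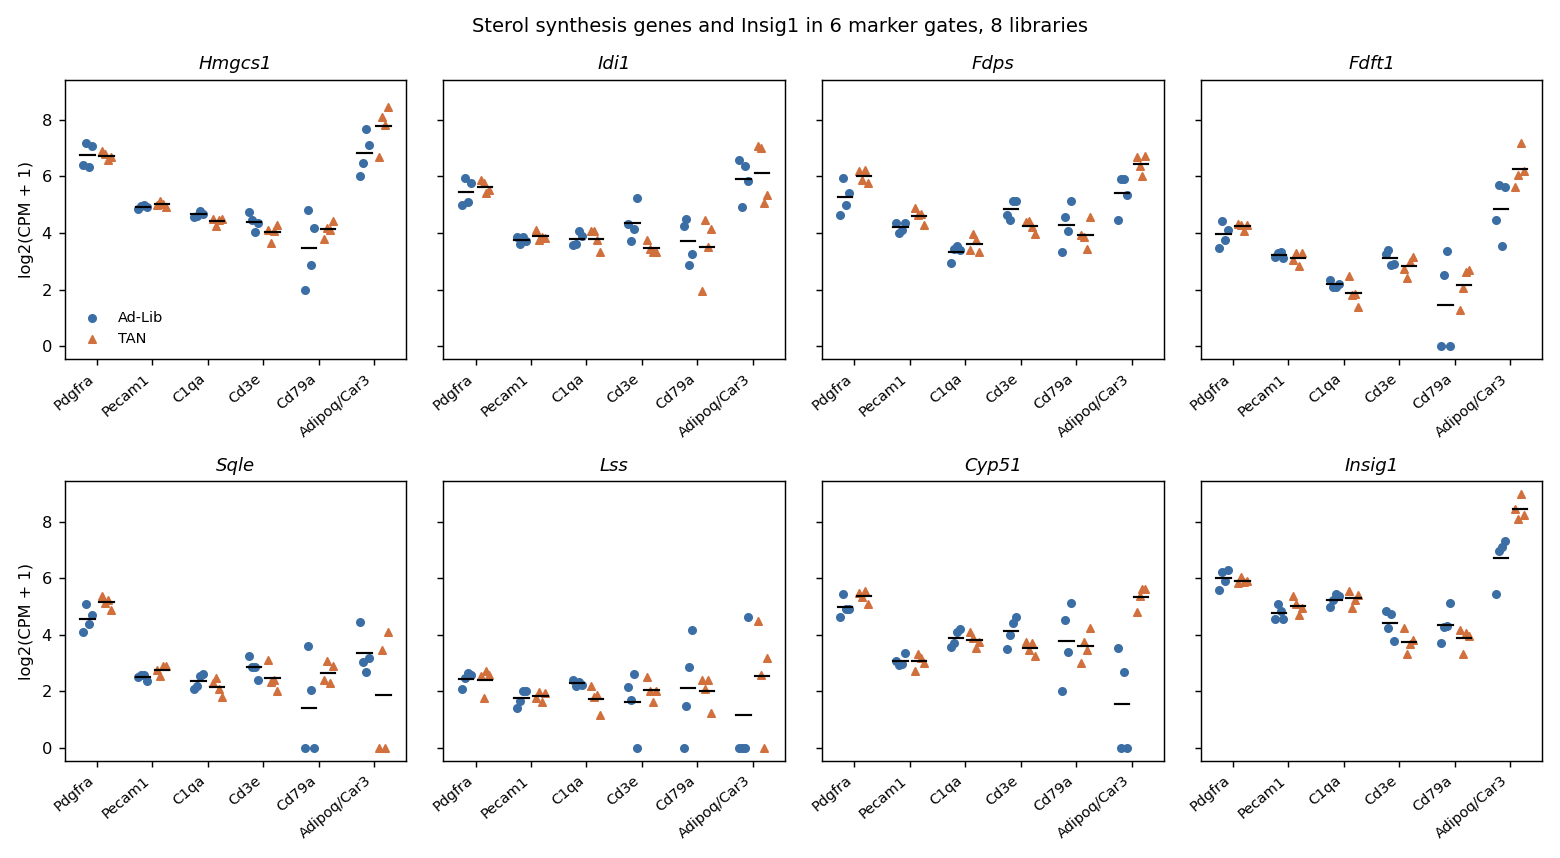
Level of each gene (log2(CPM + 1), vertical axis) in the 6 gates (horizontal axis), 1 point per library, with circles for Ad-Lib, triangles for TAN and a bar for the mean of 4 libraries. Insig1 in the Adipoq/Car3 gate shows 4 TAN points (273 to 500 CPM) above 4 Ad-Lib points (42.3 to 160 CPM), whereas the groups overlap for all 8 genes in the Pdgfra gate.

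The adipocyte-rich droplets held the 1 difference between feeding groups that passed the test. Insig1 measured 42.3, 124, 135 and 160 CPM in Ad-Lib 1, 3, 5 and 7 and 344, 273, 500 and 303 CPM in TAN 2, 4, 6 and 8. Every TAN library lay above every Ad-Lib library. The means were 115 ± 51.0 and 355 ± 101 CPM (SD, n = 4 each), a ratio of 3.08. In the fit, which scales the libraries by TMM and so gives values other than the ratio of mean CPM, it rose by 1.41 ± 0.24 on the log2 scale (SE; 2.66-fold), with an adjusted p of 4.84e-05 by edgeR's quasi-likelihood test over the 1713 genes tested in that gate. A gene was called when its adjusted p was under 0.05 and its change at least 1.5-fold. Of the genes tested there 9.05% were called in either direction and 3.79% were called higher in TAN. Of the 8 genes 3 passed the filter on low counts in this gate and 1 of the 3 was called. None of the 3 reached the level of the filter in all Ad-Lib libraries, so nothing is read from that number. Insig1 reached the level of the filter in 3 Ad-Lib and 4 TAN libraries, and it was also called with no filter. The call held in every alternative that could be fitted for this gate, with log2 changes of 1.21 to 1.54 when a library was left out.

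The enzymes on the list, which are all its genes but Insig1, had no call in these droplets with the filter applied. Hmgcs1 and Idi1 passed the filter on low counts, and Fdps, Fdft1, Sqle, Lss and Cyp51 were under it. Hmgcs1 measured 63.4, 87.7, 205 and 136 CPM in Ad-Lib and 102, 273, 226 and 351 CPM in TAN. The groups overlapped through TAN 2, which lay below the Ad-Lib libraries at 205 and 136 CPM. The log2 difference of 0.76 ± 0.29 was not called (edgeR, adjusted p 0.0932). It was called without Ad-Lib 5 (1.17, adjusted p 0.0180; 7.67% of all genes called) and without TAN 2 (1.07, adjusted p 0.0117; 6.29%). Idi1 measured 95.1, 29.2, 81.1 and 56.0 CPM in Ad-Lib and 134, 126, 32.2 and 39.9 CPM in TAN, a log2 difference of 0.54 ± 0.38 (edgeR, adjusted p 0.422). For Idi1 the 2 high TAN libraries were TAN 2 and TAN 4, and the other 2 lay within the Ad-Lib range.

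Genes under the filter were compared as CPM by exact permutation over the 70 assignments of 4 against 4 libraries (two-sided, smallest p 0.0286). Adjusted over 10 combinations, that smallest p passes only if most of them reach it, so a lack of a pass decides nothing. Cyp51 had 1, 0, 1 and 0 UMIs in the Ad-Lib libraries and 5, 8, 3 and 6 in the TAN libraries. That made 10.6, 0, 5.41 and 0 CPM against 26.9, 40.4, 48.4 and 47.9 CPM, without overlap (exact p 0.0286, 0.143 after adjustment over the 10 gene and gate combinations under the filter). The pooled counts, 2 of 541428 UMIs against 22 of 571479, give a ratio of 10.4 with a 95% interval of 2.56 to 91.4 (Clopper-Pearson, counting error only). The same ratio was 0.758 for Sqle (0.150 to 3.52) and 1.54 (Idi1) to 2.68 (Insig1) for the other 6 genes. Fitted without the filter, Cyp51 was called in this gate (log2 3.13 ± 0.82, adjusted p 0.0175 by edgeR), as were 0.99% of the 12832 genes then tested.

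Fdps measured 21.1, 58.5, 59.5 and 40.0 CPM in Ad-Lib and 102, 80.8, 64.5 and 104 CPM in TAN, also without overlap (exact p 0.0286, adjusted 0.143). Fdft1 measured 21.1, 51.2, 10.8 and 47.96 CPM against 48.3, 65.7, 145 and 71.8 CPM (exact p 0.0571). Its groups met between 48.3 and 51.2 CPM. Sqle, with 5 and 4 UMIs in all, and Lss, with 3 and 6, were too sparse in this gate for a difference to be detectable. Among the genes with at least 10 UMIs in the gate, 3.3% had all TAN libraries above all Ad-Lib libraries. Insig1, Fdps and Cyp51 were separated in that way, but Cyp51 reached 10 UMIs only through the TAN libraries, and nothing is read from their number. Summed over the 8 genes the level was 275, 358, 503 and 472 CPM in Ad-Lib and 779, 874, 1016 and 942 CPM in TAN. Insig1, with means of 115 and 355 CPM, and Hmgcs1, with 123 and 238, made much of these sums. They are not read as a rise of each gene.

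Other measures of these droplets also differed between the groups. Their median depth was 995 to 1098 UMIs in Ad-Lib and 1126 to 1203 in TAN, and their median mitochondrial share 3.78 to 5.01% against 5.47 to 6.36% (exact p 0.0286 for each). The 8 dissociation-stress genes (Fos, Jun and the like) summed to 3617 to 5627 CPM in Ad-Lib and 1661 to 2390 in TAN (exact p 0.0286), with 8 of 8 lower on average in TAN. Macrophage markers summed to 146 to 304 CPM against 65.7 to 176, and progenitor markers to 249 to 711 against 141 to 503. Pericyte and smooth muscle markers summed to 528 to 803 CPM against 226 to 564 (exact p 0.0571). Haemoglobin transcripts reached 8870 CPM in Ad-Lib 1 and 35.4 to 439 CPM in the other libraries. The 8 adipocyte markers, the gate's own 2 included, summed to 45956 to 51275 CPM in Ad-Lib and 43176 to 53963 CPM in TAN. With each droplet thinned to 1000 UMIs Insig1 was still called (log2 1.35 ± 0.31, adjusted p 0.00219, beside 12.1% of all genes), and without Ad-Lib 1 likewise (1.21 ± 0.23, adjusted p 0.000240, beside 7.51%). The part of stress genes, mitochondrial RNA and markers of other cells in the result was not tested.

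In the Pdgfra gate, the most deeply sampled, none of the 8 genes was called, and 0.792% of the 11998 genes tested were. The late isoprenoid step and the squalene step had the larger differences. Fdps measured 24.1, 61.4, 30.9 and 42.1 CPM in Ad-Lib and 72.5, 57.0, 74.5 and 53.5 CPM in TAN. Sqle measured 16.2, 33.2, 19.8 and 24.9 CPM in Ad-Lib and 40.7, 34.3, 36.7 and 28.3 CPM in TAN. For both, 3 of the 4 Ad-Lib libraries lay below every TAN library and Ad-Lib 3 lay among them. The log2 differences were 0.68 ± 0.23 for Fdps (p 0.0115, adjusted 0.183) and 0.57 ± 0.19 for Sqle (p 0.0118, adjusted 0.185) by edgeR. Without Ad-Lib 3 both were called, Fdps at 0.99 (adjusted p 0.0210) and Sqle at 0.79 (adjusted p 0.0306), beside 0.645% of all genes.

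For the other 6 genes of the progenitor gate the differences were smaller. Cyp51 differed by 0.34 ± 0.16 (40.2 ± 5.38 against 31.3 ± 7.82 CPM) and Fdft1 by 0.27 ± 0.19. Idi1 differed by 0.14 ± 0.20, Lss by -0.04 ± 0.22, Hmgcs1 by -0.08 ± 0.18 and Insig1 by -0.14 ± 0.13. Their adjusted p-values by edgeR ran from 0.364 (Cyp51) to 0.968 (Lss). Insig1, at 46.5, 73.6, 59.0 and 78.1 CPM in Ad-Lib and 55.4, 64.5, 56.7 and 59.1 CPM in TAN, overlapped fully. The median log2 difference of the 8 was 0.20 beside 0.0072 for all genes tested.

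In the Pdgfra gate Ad-Lib 1 was the lowest of its group for 7 of the 8 genes and Ad-Lib 3 the highest for 6, and the summed level was 239, 440, 271 and 383 CPM in Ad-Lib and 412, 379, 371 and 343 CPM in TAN. The SD was larger in Ad-Lib than in TAN for 7 of the 8 genes, Lss being the exception. For Hmgcs1 the SD was 29.98% of the mean in Ad-Lib and 9.75% in TAN. The same 4 libraries did not separate in this way among endothelial cells, whose SD for Hmgcs1 was 4.74% of the mean in Ad-Lib and whose summed levels ran from 105 to 113 CPM. The SD was larger in Ad-Lib for 1 of 8 genes in Pecam1, 3 in C1qa, 6 in Cd3e, 7 in Cd79a and 1 in Adipoq/Car3. These counts use SDs in CPM, which rise with the mean. As a percentage of the mean, the SD in Adipoq/Car3 was larger in Ad-Lib for every gene but Idi1 and Sqle. For Insig1 there it was 44.2% in Ad-Lib and 28.4% in TAN. In C1qa the relative SD was larger in Ad-Lib only for Cyp51. Ad-Lib 1 was the lowest of its group for 6 of 8 genes in C1qa. In Cd79a, where Ad-Lib 1 held 0 to 6 UMIs of each gene, it was the lowest for 5 and tied at 0 with Ad-Lib 7 for 2. A difference in spread between 4 and 4 libraries was not tested. In the Pdgfra gate the cycling markers summed to 19.97 CPM in Ad-Lib 3 and 0.57 to 4.93 CPM in the other libraries, and the stress genes summed to 13619 to 17236 CPM in Ad-Lib and 11237 to 12853 in TAN. The part of either in the spread was not tested.

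**Figure D2:**
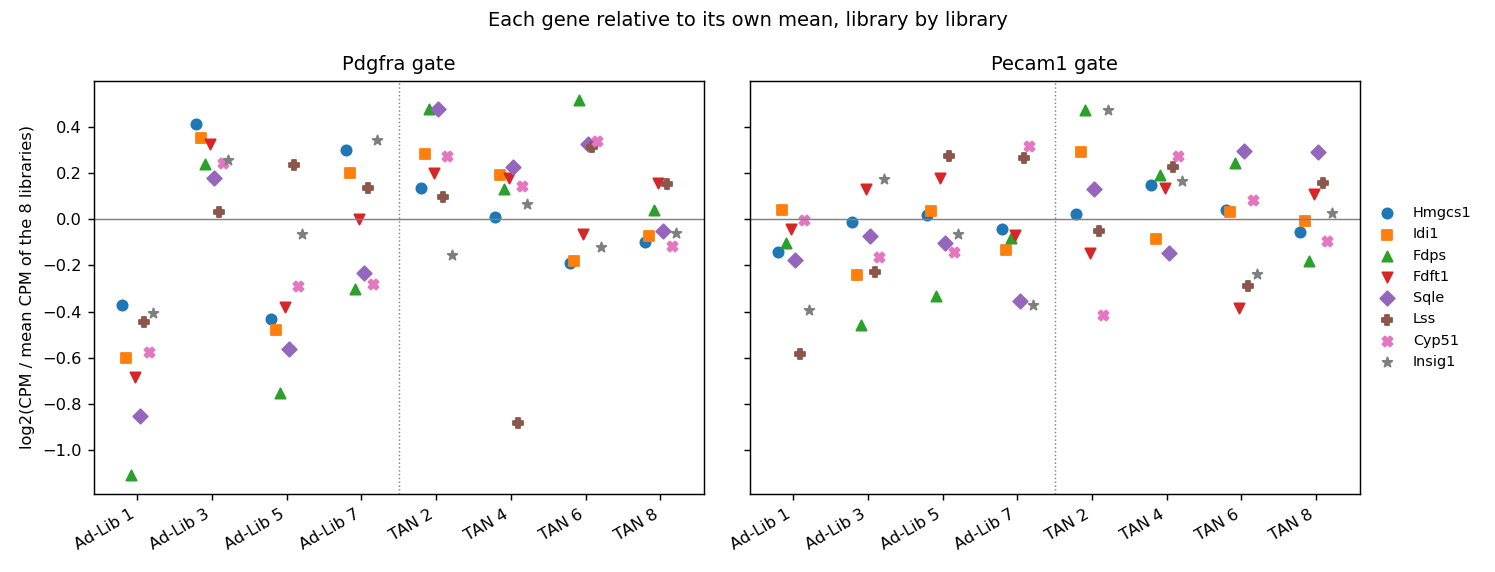
Each gene's CPM in a library relative to its own mean over the 8 libraries (log2 ratio, vertical axis) in the Pdgfra gate (left) and the Pecam1 gate (right), with libraries along the horizontal axis and 1 symbol per gene. In the Pdgfra gate most genes lie together below 0 in Ad-Lib 1 and Ad-Lib 5 and above 0 in Ad-Lib 3, and in the Pecam1 gate their signs are mixed in most libraries.

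Progenitors were divided further by pairs of markers into Dpp4/Pi16 cells (interstitial progenitors), Icam1/Col15a1 cells (committed preadipocytes) and F3/Gdf10 cells, of which the Ad-Lib libraries held 997, 510 and 321 and the TAN libraries 771, 362 and 237. Of the 8 genes 7, all but Lss, were higher in Icam1/Col15a1 cells than in Dpp4/Pi16 cells in 8 of 8 libraries of both feeding groups. Hmgcs1 averaged 175 ± 52.4 CPM in Icam1/Col15a1 cells, 107 ± 29.6 in F3/Gdf10 cells and 44.4 ± 14.0 in Dpp4/Pi16 cells (SD, n = 8). Sqle averaged 47.0 ± 18.5, 30.3 ± 11.2 and 7.73 ± 3.93 CPM in the same order. The log2 difference between Icam1/Col15a1 and Dpp4/Pi16 cells was 2.47 ± 0.70 for Sqle, 1.956 ± 0.30 for Hmgcs1, 1.89 ± 0.57 for Cyp51, 1.83 ± 0.65 for Fdft1, 1.80 ± 0.50 for Idi1, 1.70 ± 0.71 for Fdps and 0.89 ± 0.29 for Insig1 (SD over libraries). Each had an exact p of 0.0078, the smallest that sign flips of 8 libraries give (0.0144 after adjustment over the 24 comparisons of sub-gates). Of all genes with at least 10 UMIs in the pair of sub-gates, 13.8% were higher in Icam1/Col15a1 cells in all 8 libraries. Lss, at 4.19 ± 2.53 and 3.92 ± 1.79 CPM, was sparse, and its difference of -0.045 ± 1.29 had an exact p of 0.922. Depth was alike, with a median of 9535 to 11785 UMIs in Icam1/Col15a1 cells and 8655 to 11419 in Dpp4/Pi16 cells.

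F3/Gdf10 cells stood between the other 2 for 7 of the 8 genes. The same 7 except Insig1, 6 in all, were above Dpp4/Pi16 cells in 8 of 8 libraries, against 9.03% of all genes with at least 10 UMIs. For Insig1 the difference of 0.43 ± 0.51 held in 6 of 8 libraries (exact p 0.0547). Icam1/Col15a1 cells were above F3/Gdf10 cells by 0.70 ± 0.59 for Hmgcs1 and 0.47 ± 0.40 for Insig1, in 7 of 8 libraries each (exact p 0.0234, adjusted 0.0375). These sub-gate comparisons were added after the values had been seen. With cells thinned to 2000 UMIs, 5 genes were higher in Icam1/Col15a1 cells in every library, and with 1000 UMIs 4 were. For F3/Gdf10 cells the counts were 3 and 1. The share of all genes at these depths is not given here, so nothing is read from the lower counts.

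**Figure D3:**
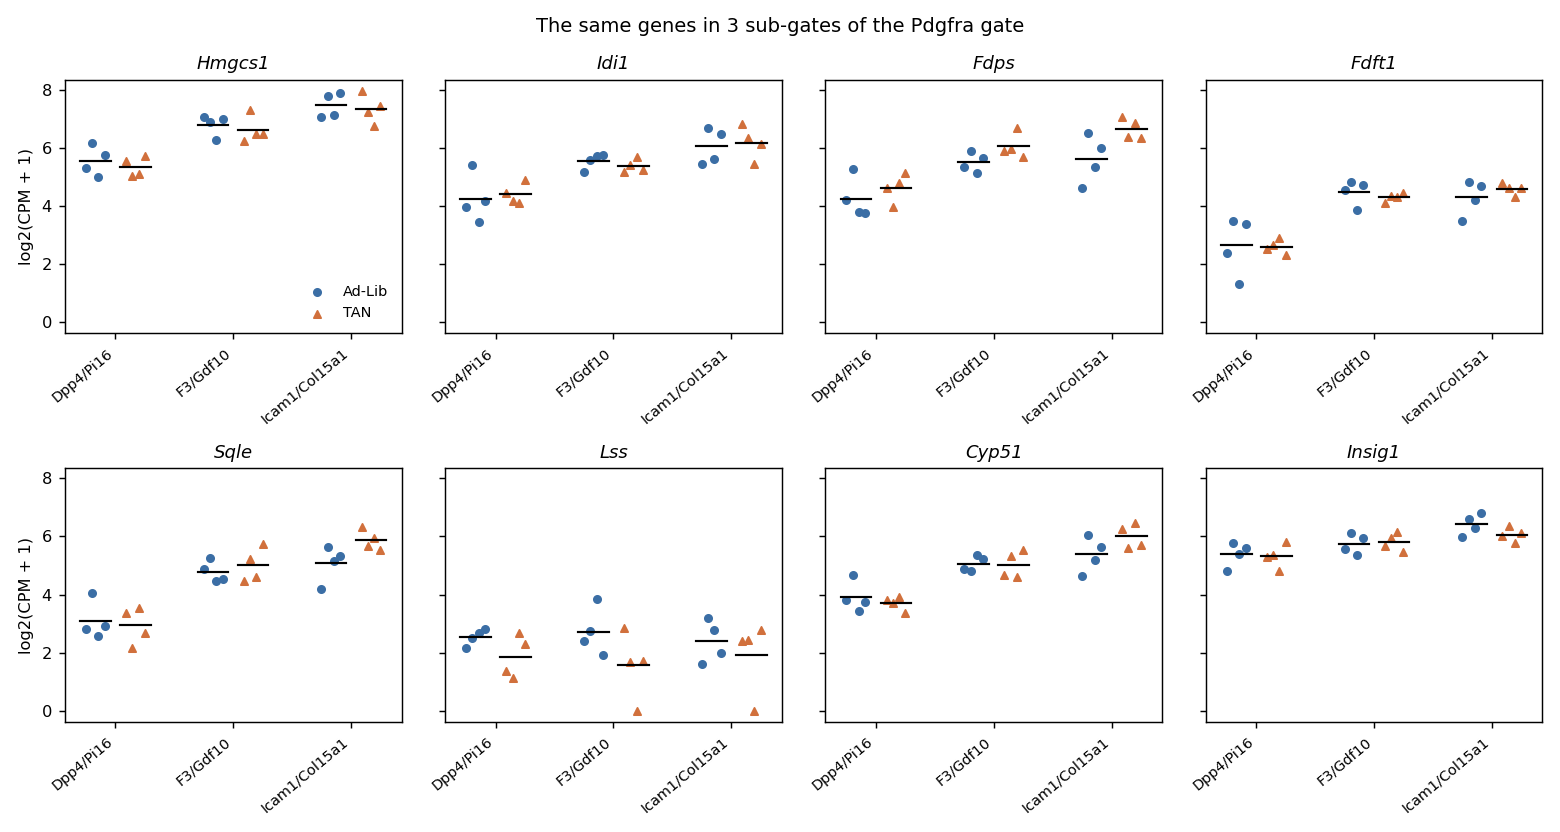
Level of each gene (log2(CPM + 1), vertical axis) in 3 sub-gates of the Pdgfra gate (horizontal axis), 1 point per library, with circles for Ad-Lib, triangles for TAN and a bar for the mean of 4 libraries. For Hmgcs1, Idi1, Fdps, Fdft1, Sqle and Cyp51 the Dpp4/Pi16 cells are the lowest, while Lss is near 4 CPM in all 3 sub-gates.

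Within the sub-gates the order of the Ad-Lib libraries varied. Among Icam1/Col15a1 cells Ad-Lib 1 was the lowest of its group for 8 of the 8 genes and Ad-Lib 3 the highest for 6. Among Dpp4/Pi16 cells Ad-Lib 3 was the highest for 7, at a summed 258 CPM against 116 to 164 in the other Ad-Lib libraries, and Ad-Lib 5 was the lowest for 5. Among F3/Gdf10 cells Ad-Lib 1 was the lowest for 1 gene and Ad-Lib 3 the highest for 4, and the summed levels ran from 290 to 386 CPM in Ad-Lib and from 284 to 415 CPM in TAN.

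Feeding groups were compared in each sub-gate as well, where no gene was called. Called genes made 1.36% of all tested in Icam1/Col15a1 cells, 0.21% in Dpp4/Pi16 cells and 1.12% in F3/Gdf10 cells. In Icam1/Col15a1 cells Fdps measured 23.5, 91.0, 39.4 and 62.1 CPM in Ad-Lib and 132, 81.9, 114 and 80.5 CPM in TAN, a log2 difference of 0.91 ± 0.27 (edgeR, p 0.0026, adjusted 0.0998). Sqle there measured 17.4, 48.6, 34.3 and 39.4 CPM in Ad-Lib and 80.2, 49.4, 61.2 and 45.2 CPM in TAN, a difference of 0.75 ± 0.24 (p 0.0048, adjusted 0.133). In both, 3 of the 4 Ad-Lib libraries lay below all TAN libraries. Fdps was called without Ad-Lib 3 (1.25, adjusted p 0.00775, beside 1.31% of all genes) and with gates set at 1 UMI (1.08, adjusted p 0.0439, beside 1.51%). With no filter on low counts both genes were called, beside 1.76% of all genes. Stress genes summed to 16194 to 19801 CPM in Ad-Lib and 11109 to 14402 in TAN in these cells, and haemoglobin transcripts to 9.10 to 37.6 and 42.5 to 1108 CPM, without overlap (exact p 0.0286 for each). Their part in the result was not tested. In Dpp4/Pi16 and F3/Gdf10 cells the smallest adjusted p among the 8 genes was 0.550, for Fdps in F3/Gdf10 cells (0.43 ± 0.22).

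None of the 8 genes was called in the Pecam1 gate, where 1.66% of the 11249 genes tested were. Fdps measured 19.3, 15.1, 16.4 and 19.6 CPM in Ad-Lib and 28.8, 23.7, 24.5 and 18.3 CPM in TAN. All TAN libraries but TAN 8 lay above the Ad-Lib libraries, with a log2 difference of 0.48 ± 0.15 (edgeR, p 0.0077, adjusted 0.112). Without TAN 8 it was called (0.60, adjusted p 0.0362), beside 1.71% of all genes. The median mitochondrial share of these cells was 1.72 to 2.16% in Ad-Lib and 2.51 to 3.26% in TAN, and its part was not tested. Insig1 differed by 0.33 ± 0.17, Sqle by 0.33 ± 0.20 and Hmgcs1 by 0.12 ± 0.09, and the adjusted p-values of the other 7 genes ran from 0.366 to 0.981.

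Macrophages in the C1qa gate also had no call among the 8 genes, beside 0.379% of 10034 genes tested. Insig1 averaged 37.2 ± 5.09 CPM in Ad-Lib and 38.5 ± 6.90 in TAN (log2 difference 0.09 ± 0.13). Hmgcs1 measured 22.9, 23.4, 26.7 and 24.5 CPM in Ad-Lib and 21.5, 18.3, 21.0 and 21.8 CPM in TAN, without overlap and with a log2 difference of -0.22 ± 0.12 (edgeR adjusted p 0.465) that turned to 0.16 with gates at 1 UMI. Lss, at 3.55 to 4.27 and 1.24 to 3.52 CPM, did not overlap either (-0.63 ± 0.34, adjusted p 0.442). Such separation, lower in TAN, occurred in 3.11% of genes with at least 10 UMIs in the gate.

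In T cells most of the list was lower on average in TAN, without a call. Of the 8 genes 7 had a lower mean, the median log2 difference of the 6 that passed the filter was -0.47 beside -0.0077 for all genes, and 0 of the 6 were called beside 1.73% of the 8402 genes tested. Idi1 measured 18.9, 12.2, 16.5 and 36.5 CPM in Ad-Lib and 12.4, 9.9, 9.0 and 9.0 CPM in TAN. Its groups met between Ad-Lib 3 and TAN 2, and the log2 difference was -0.80 ± 0.30 (edgeR, p 0.02004, adjusted 0.154). Without Ad-Lib 3 it was called (-1.03, adjusted p 0.0480), where 12.8% of the 7718 genes tested were. Insig1 differed by -0.67 ± 0.27 (p 0.0273, adjusted 0.178) and Fdps by -0.44 ± 0.21 (adjusted p 0.258). Fdps, at 20.8 to 34.4 CPM in Ad-Lib and 14.5 to 20.3 in TAN, did not overlap, and 6.52% of genes with at least 10 UMIs were separated in that direction. In this gate progenitor markers summed to 216 to 1903 CPM in Ad-Lib and 60.0 to 311 in TAN, and stress genes to 2505 to 4105 and 1610 to 2467. T cell markers summed to 3073 to 3929 CPM in Ad-Lib and 4031 to 4311 in TAN, and the median mitochondrial share was 1.98 to 2.72% and 2.86 to 3.55%, both without overlap (exact p 0.0286). The part of these in the lower levels was not tested.

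In B cells 5 of the 8 genes passed the filter and none was called (edgeR, adjusted p 0.9999 for each). Of the 7585 genes tested in the Cd79a gate 0% were called by edgeR, with 161 at an unadjusted p under 0.05, and DESeq2 called 0 with 124. Hmgcs1 ranged from 3.01 to 27.0 CPM in Ad-Lib, where the library Ad-Lib 1 gave 1 UMI, and from 12.8 to 20.6 CPM in TAN. Its fitted log2 difference of -0.29 ± 0.33 ran against the means of 13.4 and 16.7 CPM, and it turned to 0.98 without Ad-Lib 3, so no direction is given for Hmgcs1. Idi1, Fdps, Cyp51 and Insig1 had differences of -0.50 to -0.65 that stayed below 0 whichever library was left out, but with cells thinned to 2000 UMIs Idi1 (0.19) and Insig1 (0.19) turned, so no direction is given for these either.

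**Figure D4:**
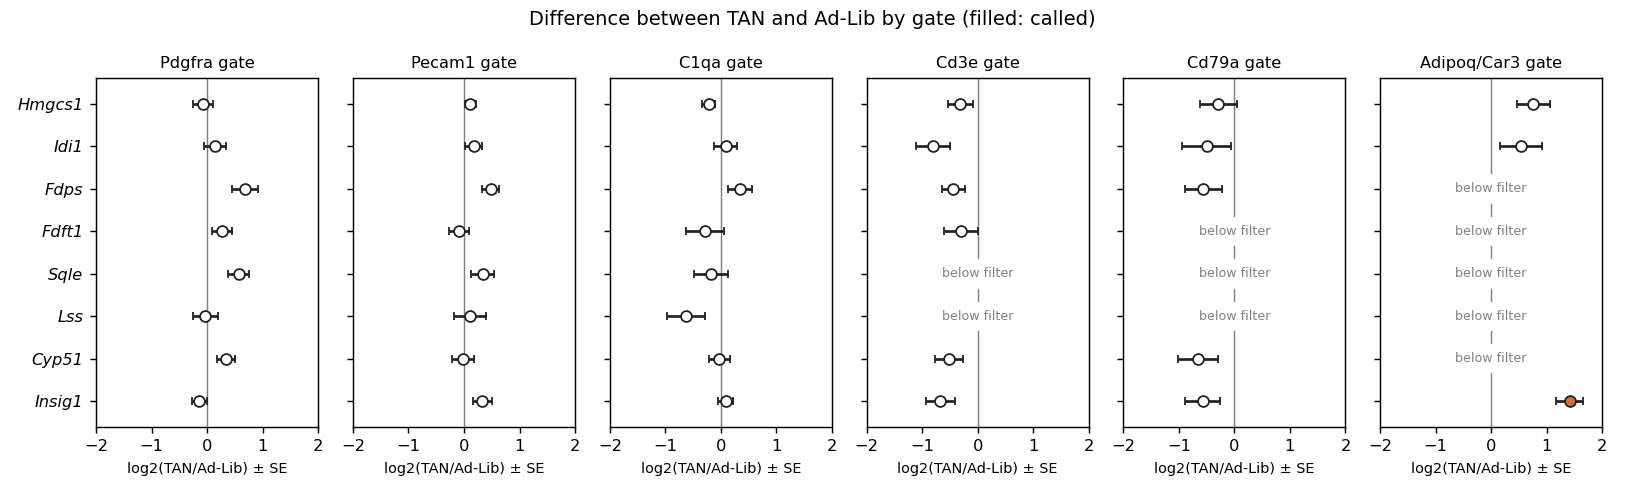
Log2 difference of TAN over Ad-Lib (horizontal axis, bars of 1 SE from edgeR) for each gene (rows) in each gate (panels), with genes under the filter on low counts marked as such. The filled point, Insig1 in the Adipoq/Car3 gate (1.41 ± 0.24), is the 1 called of 38 gene and gate values, and the other 37 are open.

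Whether the feeding difference varied between gates was tested directly, with library as a block and gates as repeated measures of it. At an adjusted p under 0.05, 2 of the 8 genes passed, Insig1 (0.00268) and Cyp51 (0.0413), beside 4.37% of the 13180 genes tested by edgeR. For Insig1 the difference in the Adipoq/Car3 gate exceeded that in the Pdgfra gate by 1.61 ± 0.28 on the log2 scale (adjusted p 0.000786). The same term for Cyp51 was 3.06 ± 0.91 (adjusted p 0.216). The other 6 had adjusted p-values from 0.234 (Fdps) to 0.810 (Lss). With no filter on low counts Fdps passed as well (adjusted p 0.00549), beside 6.55% of all genes. With cells thinned neither gene passed. For Insig1 the adjusted p over the gates was 0.0799 at 1000 UMIs, where the Adipoq/Car3 term was 1.62 (adjusted p 0.0113), and 0.384 at 2000 UMIs, where the term was 1.27 (adjusted p 0.927) and rested on the 2 Ad-Lib and 3 TAN libraries that kept at least 10 droplets of that depth. Cyp51 also did not pass without Ad-Lib 1 (0.0635), Ad-Lib 5 (0.109), Ad-Lib 7 (0.241), TAN 4 (0.160) or TAN 6 (0.0969), nor with the Adipoq/Car3 share at 0.5% (0.0718) or 2% (0.117), nor without cells holding Mki67 or Top2a (0.113).

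The share of cells with at least 1 UMI was compared after thinning each cell to 2000 UMIs, in the 5 gates deep enough. Of 40 comparisons 3 had the smallest exact permutation p that 4 against 4 libraries can give, 0.0286, and none passed adjustment (smallest adjusted p 0.381). A p at that floor passes only if most of the 40 share it, so the lack of a pass decides nothing. The 3 were Idi1 in Cd3e cells (4.31% ± 1.60 in Ad-Lib, 1.63% ± 0.14 in TAN, SD, n = 4), Hmgcs1 in C1qa cells (4.80% ± 0.58 and 3.72% ± 0.32) and Sqle in Pecam1 cells (0.877% ± 0.048 and 1.14% ± 0.21). Without thinning the shares were 11.4% and 5.24%, 13.3% and 9.97%, and 2.40% and 2.98%. In the Adipoq/Car3 gate, without thinning, Insig1 was seen in 12.3% ± 5.06 of droplets in Ad-Lib and 34.3% ± 7.51 in TAN (exact p 0.0286, adjusted 0.229). That exact p is again the smallest possible, so the adjusted value decides nothing.

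Other genes of the path were described from lists of related genes. Of 15 further sterol enzymes 3 were tested in the Adipoq/Car3 gate, where 3.79% of all genes rose, and 2 of them did. None of the 3 reached the level of the filter (76.3 CPM) in all Ad-Lib libraries and each did in all TAN libraries, so they were tested through the group where they were high and nothing is read from their number. Pmvk, which phosphorylates phosphomevalonate, rose from 79.5 ± 27.5 to 204 ± 34.1 CPM (log2 1.24 ± 0.27, edgeR adjusted p 0.00126), and Sc5d, a late desaturase, from 54.4 ± 27.6 to 152 ± 31.7 CPM (1.26 ± 0.32, adjusted p 0.00616). These 2 are named after their values were seen. Sc5d reached the level in 0 Ad-Lib libraries, so its p-value is a description only. In the Pdgfra gate 0 of the 15 were called by edgeR, with 6 higher and 0 lower at an unadjusted p under 0.05, where 6.42% of all genes were higher, and a median log2 difference of 0.30 beside 0.0072 for all genes. In the Pecam1, C1qa, Cd3e and Cd79a gates 0 of 14, 12, 11 and 7 were called, beside 1.66%, 0.379%, 1.73% and 0% of all genes tested. The 12 genes of SREBP control, among them the sensors and the SREBP genes themselves, had 0 calls by edgeR among those tested, which were all 12 in 5 gates and in Dpp4/Pi16 cells, 11 in the other 2 sub-gates and 2 in the Adipoq/Car3 gate. Of all genes tested, 0% (Cd79a) to 9.05% (Adipoq/Car3) were called in these gates and sub-gates. At an unadjusted p under 0.05, 1 was higher and 1 lower in Pecam1 (938 and 1013 of all 11249 genes). In C1qa 1 was lower (673 of 10034) and in Cd3e 1 was lower (993 of 8402), and 0 elsewhere.

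Of the isoprenoid and uptake genes, 1 of 8 tested in each list was called in Cd3e cells (1.73% of all genes there), and of the efflux genes 1 of 2 in the Adipoq/Car3 gate (9.05%) and 1 of 7 in Icam1/Col15a1 cells (1.36%). The tested genes of these lists had no call elsewhere, but in the Adipoq/Car3 gate 0 of the 9 isoprenoid and 2 of the 10 uptake genes were tested. In Cd3e cells Fntb, a subunit of farnesyltransferase, rose (1.53 ± 0.33, edgeR adjusted p 0.0454) and Lrp1, a lipoprotein receptor, fell (-1.80 ± 0.33, adjusted p 0.0345). Without TAN 6 or without TAN 8 the Cd3e gate had 0 calls over all genes by edgeR (1218 and 1520 at an unadjusted p under 0.05), so neither call held. Without Ad-Lib 1, Ad-Lib 7 or TAN 4 it had 1, 1 and 2 calls, against 145 with all 8 libraries. Progenitor markers were also lower in TAN in this gate, as given above, and their part in the fall of Lrp1 was not tested. Apoe, the lipoprotein component, fell in the Adipoq/Car3 gate (3335 ± 361 to 2234 ± 178 CPM, adjusted p 0.000254) and rose in Icam1/Col15a1 cells (329 ± 56.8 to 632 ± 176 CPM, adjusted p 0.00448). Macrophages also make Apoe. In the Adipoq/Car3 gate the 7 macrophage markers summed to 241 CPM on average in Ad-Lib and 129 in TAN, with 0 of 7 higher in TAN, and their part in the fall of Apoe was not tested.

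Fatty acid synthesis genes are known to be driven by SREBP1 and ChREBP. In the Adipoq/Car3 gate 8 of the 9 tested rose, beside 3.79% of all genes there. Of the 9, 5 reached the level of the filter in all Ad-Lib libraries (Fasn, Acaca, Me1, Thrsp and Scd1, which did not rise), and the other 4 were tested through the TAN libraries, so the count is a description. Acly, which makes cytosolic acetyl-CoA, rose from 149 ± 71.8 to 1176 ± 66.6 CPM, and Fasn, fatty acid synthase, from 1313 ± 421 to 3833 ± 424 CPM. In the Pecam1 gate 6 of 11 rose beside 0.747% of all genes, and in the C1qa gate 4 of 10 beside 0.169%, among them Me1, the NADPH-producing malic enzyme (2.34 ± 0.21 and 3.21 ± 0.31). In the Pdgfra gate 1 of 11 rose beside 0.283% of all genes, Thrsp (1.81 ± 0.32, edgeR adjusted p 0.0162). In Cd3e and Cd79a cells 0 of 8 and 0 of 6 rose, beside 28 of 8402 and 0 of 7585 genes. Adipocyte markers summed to 1624 to 2330 CPM in Ad-Lib and 1170 to 2618 in TAN in the Pecam1 gate, and to 178 to 240 and 170 to 444 in the C1qa gate. On average 5 of the 8 markers were higher in TAN in Pecam1 and 8 of 8 in C1qa. The part of adipocyte RNA in those gates was not tested.

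Genes alike in pattern to the mean of the 8 were sought over the 48 gate and library sums among 1486 genes. By level the closest were Dtnbp1 (r 0.90), Pmm1 (0.87), Ugp2 (0.86), Sc5d (0.86) and Ybx3 (0.85). With each gate's mean removed they were Cox8a (0.78), Tkt (0.78), Sh3glb1 (0.77), Gapdh (0.76) and Cox6c (0.75). These correlations share libraries and depth and are a description.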

How the data were processed

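Single cells of the inguinal SVF of 4 Ad-Lib and 4 TAN libraries were analysed. The counts are raw UMI counts deposited by the authors, made with Cell Ranger against mm10 (version 3.0.2 per the submitters' notes, 6.0.1 in the file headers); the annotation is not given in the sources used here. Cells with 700 to 30000 UMIs, 200 to 8000 genes and at most 10% mitochondrial UMIs were kept. Gates needed 2 UMIs of the marker (1 for Cd3e) or, for Adipoq plus Car3, 1% of UMIs with each seen. Sub-gates needed 2 UMIs of their own marker pair and under 2 of the others. No doublet caller was run, and cells in several gates were left out. UMIs were summed per library and gate (sums of under 10 cells were left out, and a gate needed 3 libraries a group) and tested with edgeR 4.0.16 (quasi-likelihood, TMM scaling, filterByExpr, Benjamini-Hochberg adjustment over all genes of the gate; R 4.3.3), first checked on simulated counts. DESeq2 1.42.0, RLE scaling, other gate limits, thinning and leaving out each library were alternatives. Intervals cover counting error only. Coordinates came from GENCODE M21 (GRCm38), to which 32158 gene identifiers matched. Beside the 8, the text names genes of the lists that were called, at most 8 per gate by smallest adjusted p, and the 5 most alike by each measure. The 8 genes, the lists and the markers were chosen with earlier results of these data known.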

Additional observations from a re-analysis of the deposited data

Results flagged for a closer look

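In 3 of 144 groups of 4 libraries 1 library lay far from the other 3 of its group. That is not above the rate of about 1 in 20 that chance gives. Sqle in the Adipoq/Car3 gate measured 21.1 CPM in Ad-Lib 1, from 2 UMIs, beside 7.99 CPM in the next library. Sqle in Dpp4/Pi16 cells measured 15.5 CPM in Ad-Lib 3, from 37 UMIs, beside 6.48 CPM. Lss in the Adipoq/Car3 gate measured 23.98 CPM in Ad-Lib 7, from 3 UMIs, and 0 in the other Ad-Lib libraries.

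The feeding difference varied between the 6 gates for Insig1 (edgeR, adjusted p 0.00268) and Cyp51 (adjusted p 0.0413). Cyp51 rested on 2 and 22 UMIs in the Adipoq/Car3 gate, and its adjusted p was 0.241 without Ad-Lib 7.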

How the results depend on the processing

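No paired analysis was possible because the feeding groups share no replicate numbers. Insig1 in the Adipoq/Car3 gate was called under every alternative run there. Thinning to 2000 UMIs left 3 to 24 droplets per library in that gate and was not fitted within it, and thinning to 1000 UMIs and the sub-gate levels were added after the data had been seen. In that gate 5 of the 8 genes were under the filter on low counts.

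Leaving out single libraries gave 0 to 2 called genes in the Pdgfra gate (2 without Ad-Lib 3), 0 to 1 in Pecam1 (1 without TAN 8), 0 to 1 in Cd3e (1 without Ad-Lib 3), 1 to 2 in Adipoq/Car3 (2 without Ad-Lib 5 or TAN 2) and 0 to 1 in Icam1/Col15a1 cells (1 without Ad-Lib 3). Genes whose feeding difference varied between gates numbered 1 to 3 (3 without Ad-Lib 3, Fdps being added), with 1 without Ad-Lib 1, 5 or 7 or TAN 4 or 6. The share of all genes that varied in these fits is not given here, so nothing is read from the numbers. Neighbouring gates that differed numbered 0 to 0, with a smallest exact p of 0.0156 from 7 libraries.

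With no filter 2 genes were called in Adipoq/Car3 (0.99% of all genes) and 2 in Icam1/Col15a1 cells (1.76%), and 3 genes varied between gates (6.55%), Fdps (adjusted p 0.00549 by edgeR) being added. Thinning to 2000 UMIs gave 1 call in Pdgfra (Sqle; 0.874% of all genes), 0 genes varying between gates and 3 genes above Dpp4/Pi16 in F3/Gdf10 cells. Thinning to 1000 UMIs gave 1 call in Pdgfra (Fdps; 0.742%), 0 genes varying between gates, 0 neighbouring pairs, and 4 genes above Dpp4/Pi16 in Icam1/Col15a1 and 1 in F3/Gdf10 cells. Gates at 1 UMI gave 1 call in Icam1/Col15a1 cells and 0 neighbouring pairs. Adipoq/Car3 at 0.5% or 2%, or leaving out cells with Mki67 or Top2a, left 1 gene varying between gates. Apart from the fit with no filter, shares of all genes are not given here for variation between gates or for the sub-gate counts. Nothing is read from those numbers. The causes were not tested.

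Directions turned only among log2 differences that were not called. At 3 UMIs these were Lss in Pdgfra (0.032), Cyp51 in Pecam1 (0.17) and Insig1 in Dpp4/Pi16 (-0.11). At 1 UMI they were Lss in Pecam1 (-0.033), Hmgcs1 in C1qa (0.16), and Idi1 (-0.14) and Insig1 (-0.034) in Dpp4/Pi16. At 0.5% Lss in Pecam1 gave -0.014. At 20% mitochondrial UMIs Cyp51 gave 0.0088 in Pecam1 and 0.018 in F3/Gdf10. Without Mki67 or Top2a cells Cyp51 gave 0.0010 in Pecam1 and 0.0059 in C1qa. Thinning to 2000 UMIs gave Idi1 0.19 and Insig1 0.19 in Cd79a, Insig1 -0.066 in Dpp4/Pi16 and Hmgcs1 0.063 in Icam1/Col15a1. DESeq2 gave Idi1 -0.015 and Insig1 -0.025 in Dpp4/Pi16 and Cyp51 0.0034 in F3/Gdf10, where RLE scaling gave 0.0011.

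Leaving out single libraries turned others. In Pdgfra, Hmgcs1 ran from -0.22 to 0.10 and Lss from -0.16 to 0.14. In Pecam1, Fdft1 ran from -0.16 to 0.017, Lss from -0.041 to 0.22 and Cyp51 from -0.15 to 0.11. In C1qa, Idi1 ran from -0.053 to 0.27, Sqle from -0.35 to 0.0013, Cyp51 from -0.18 to 0.073 and Insig1 from -0.054 to 0.18. In Cd79a, Hmgcs1 ran from -0.46 to 0.98. In Dpp4/Pi16, Hmgcs1 ran from -0.37 to 0.064, Idi1 from -0.17 to 0.62, Sqle from -0.51 to 0.27, Cyp51 from -0.48 to 0.018 and Insig1 from -0.17 to 0.19. In Icam1/Col15a1, Hmgcs1 ran from -0.36 to 0.042 and Idi1 from -0.083 to 0.40. In F3/Gdf10, Sqle ran from -0.082 to 0.46, Cyp51 from -0.17 to 0.17 and Insig1 from -0.16 to 0.10.

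Calls over all genes ranged across the alternatives, DESeq2 included, from 39 to 196 in Pdgfra, 133 to 372 in Pecam1, 12 to 178 in C1qa, 0 to 986 in Cd3e, 0 to 1 in Cd79a, 100 to 196 in Adipoq/Car3, 2 to 152 in Dpp4/Pi16, 41 to 275 in Icam1/Col15a1 and 14 to 174 in F3/Gdf10.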
